A study of Mus musculus with 8 samples.

Results

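The RGS genes encode regulators of G-protein signalling, and 10 of them were followed here in endothelial cells sorted from mouse liver: Rgs1, Rgs2, Rgs3, Rgs4, Rgs5, Rgs10, Rgs14, Rgs16, Rgs18 and Rgs19. They were chosen by symbol, with the difference between marrow-derived and resident cells already known, so that members linked to blood cells stand beside members linked to vessels. Each was measured by 1 probe set, and together they are 10 of 21161 genes with a single symbol on the array. Because the choice used this contrast, the members' differences are a description and carry no test.

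Recipients were C57BL/6N mice aged 8 weeks that were irradiated with 2 doses of 4.5 Gy (9 Gy in all) before an intravenous transplant of 5000 YFP-labelled LSK cells, a marrow fraction that contains blood stem and progenitor cells. Livers were taken after 1 month, and cells without surface CD45 (the leukocyte marker) but with CD31 and CD146 (endothelial markers) were sorted by flow cytometry. A digestion of 30 minutes and a rest of 2 hours are recorded for all 8 samples. The sorted cells were split into YFP+ cells, labelled as marrow-derived, and YFP- cells, labelled as resident, with 4 arrays of each. Every mouse was thus an irradiated chimera, and the YFP- cells are not cells of untreated mice. Which promoter drives YFP, and the donors' strain, is not stated in the labels.

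Heterotrimeric G proteins relay signals from receptors in the cell membrane when their alpha subunit binds GTP, and RGS proteins end the signal by speeding up the hydrolysis of that GTP. Family members differ in the alpha subunits they act on, in the other domains they carry and in the cells that make them. In blood cells they limit the response to chemokines and platelet agonists, and in vessel walls they limit the response to agents that constrict vessels.

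The members fall into 3 subfamilies by protein structure. Rgs1, Rgs2, Rgs3, Rgs4, Rgs5, Rgs16 and Rgs18 belong to the R4 subfamily, most of whose members are little more than an RGS domain. Rgs10 and Rgs14 belong to the R12 subfamily and Rgs19, also known as GAIP, to the RZ subfamily.

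On chromosome 1, the annotation (RefSeq, assembly GRCm38.p6) places Rgs2, Rgs13, Rgs1, Rgs21 and Rgs18 next to each other in this order, with no other protein-coding gene between any neighbouring pair. The members with the largest measured differences here, Rgs1, Rgs18 and Rgs2, are all in this cluster. Rgs16 and Rgs8 form another pair of neighbours on chromosome 1, and so do Rgs5 and Rgs4. Rgs3 lies on chromosome 4, Rgs10 on chromosome 7, Rgs14 on chromosome 13 and Rgs19 on chromosome 2. Rgs1 and Rgs18 are not in the RefSeq promoter table, so upstream sequences were taken only for the other cluster genes, Rgs2, Rgs13 and Rgs21. Each is the 250 bases before the annotated start, read 5′ to 3′ on the gene's own strand (minus for all 3). Capitals mark matches on either strand to a CCAAT box (CCAAT), a GC box (GGGCGG), the core of a cyclic AMP response element (TGACG) or a GATA site (GATAAG).
Rgs2 (chr1:144004150-144004399): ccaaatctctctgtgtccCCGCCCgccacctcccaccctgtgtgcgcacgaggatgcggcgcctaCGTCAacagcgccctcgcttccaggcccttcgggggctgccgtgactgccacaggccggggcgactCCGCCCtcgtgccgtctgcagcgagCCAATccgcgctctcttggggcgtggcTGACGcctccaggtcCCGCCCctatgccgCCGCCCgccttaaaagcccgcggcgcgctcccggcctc
Rgs13 (chr1:144177373-144177622): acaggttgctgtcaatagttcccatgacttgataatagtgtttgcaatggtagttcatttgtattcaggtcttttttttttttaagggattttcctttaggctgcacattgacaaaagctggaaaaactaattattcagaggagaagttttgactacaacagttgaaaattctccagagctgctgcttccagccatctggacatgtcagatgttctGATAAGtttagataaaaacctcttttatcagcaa
Rgs21 (chr1:144567668-144567917): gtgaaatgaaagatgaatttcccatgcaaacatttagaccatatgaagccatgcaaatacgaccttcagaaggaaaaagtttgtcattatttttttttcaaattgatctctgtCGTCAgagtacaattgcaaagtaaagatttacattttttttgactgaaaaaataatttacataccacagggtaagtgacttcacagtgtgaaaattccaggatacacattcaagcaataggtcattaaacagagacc

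The Rgs2 window held 30 CpG dinucleotides and had a GC content of 72.4%, whereas the Rgs13 window held 0 at 36% and the Rgs21 window 2 at 32.8%. The median over all 32851 windows of the same length in the table was 6 CpG dinucleotides. In Rgs2 the search found 4 GC boxes, 1 CCAAT box and 2 response-element cores, in Rgs13 it found 1 GATA site, and in Rgs21 it found 1 response-element core, none of them overlapping. Of all windows, 32.7% held the GC box, 33.8% the CCAAT box, 17.8% the response-element core and 6.55% the GATA site. A TATA box (TATAAA) and an AP-1 site (TGAGTCA), present in 12.4% and 4.46% of windows, had no match in these 3. Such matches, CpG counts and GC contents describe letters only, and their relation to the measured levels was not tested. Of the 10 members, 7 are in the promoter table; Rgs1, Rgs14 and Rgs18 are not.

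Levels are given as log2 of the normalized intensity that the authors deposited. The arrays' median intensities were alike, at 160.1 to 165.5 units. The 5049 negative-control probes had medians of 119.5 to 127.7 units on the YFP- and 103.2 to 113.0 units on the YFP+ arrays. Of all genes, 75.9% lay below the 95th percentile of these controls on all 8 arrays. Array number limits the precision. YFP+ replicate 3 stood apart, with a mean correlation of 0.901 to the rest of its group against 0.930 to 0.941 for the other YFP+ arrays and 0.962 to 0.969 for the YFP- arrays. All 13 measured liver endothelial markers lay above the 95th percentile of the controls on all 8 arrays. Their list mean was 11.04 to 11.18 log2 on YFP- and 10.59 to 10.93 log2 on YFP+ arrays. All 13 differences were negative, against 10505 of all 21161 genes. For 8 of the 13 every YFP+ array lay below every YFP- array, as for 3.82% of all genes. The 1 marker called lower was Tek, against 0.336% of all genes.

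The largest measured differences among the members were those of the chromosome 1 cluster. The measured folds of YFP+ over YFP- cells were 12.8 for Rgs1, 6.11 for Rgs18 and 3.92 for Rgs2, and every YFP+ array lay above every YFP- array for each of them. Rgs1 and Rgs18 were at background in YFP- cells and Rgs2 was dim there, so the folds and their order are not settled. Against the 95th percentile of the negative-control probes on the YFP- arrays, Rgs1 was at least 2.23-fold higher. The YFP+ mean of Rgs2 was 1.85-fold above that percentile. This is not a firm bound, since Rgs2 lay below the percentile on YFP+ replicate 3. Rgs18 has no such bound. The next largest was the 1.28-fold difference of Rgs19.

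Rgs1 protein is made by activated lymphocytes and other leukocytes, in which it dampens signalling of chemokine receptors. Its log2 intensity on YFP- replicates 1 to 4 was 6.41, 7.02, 6.26 and 6.48, and on YFP+ replicates 1 to 4 it was 9.65, 11.49, 9.23 and 10.49. The groups were far apart, and YFP+ replicates 2 and 4 were the highest arrays. The means were 6.54 ± 0.33 and 10.22 ± 1.00 (SD, n = 4), a difference of 3.67 (SE 0.42). On 3 of the 4 YFP- arrays Rgs1 lay below the median of the negative controls, so its level there is no more than a bound.

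Rgs18, known mainly from platelets, megakaryocytes and myeloid cells, stood at the background in resident cells. Its YFP- values were 6.18, 6.20, 6.38 and 6.05 log2, below the negative-control median on all 4 arrays. Its YFP+ values were 9.06, 9.77, 7.45 and 8.97 log2, above the 95th percentile of the controls on 3 arrays but not on replicate 3. The group means were 6.20 ± 0.13 and 8.82 ± 0.98 (SD, n = 4), which is a difference of 2.61 (SE 0.39). The YFP+ mean did not exceed the 95th percentile of the YFP- controls, so no lower bound on the fold can be given.

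Rgs2 protein acts mainly on Gq and is known from vascular tone as well as from lymphocytes. Unlike Rgs1 and Rgs18 it was above the negative-control median on all 8 arrays. It lay below the 95th percentile of the controls on all 4 YFP- arrays and on YFP+ replicate 3. Its YFP- values were 7.75, 8.13, 8.34 and 7.68 log2, and its YFP+ values 9.95, 11.12, 8.51 and 10.20 log2. YFP+ replicate 3 came close to the resident arrays, and the other YFP+ arrays stood well clear of them. The means were 7.98 ± 0.31 and 9.95 ± 1.08 (SD, n = 4), with a difference of 1.97 (SE 0.44).

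**Figure D1:**
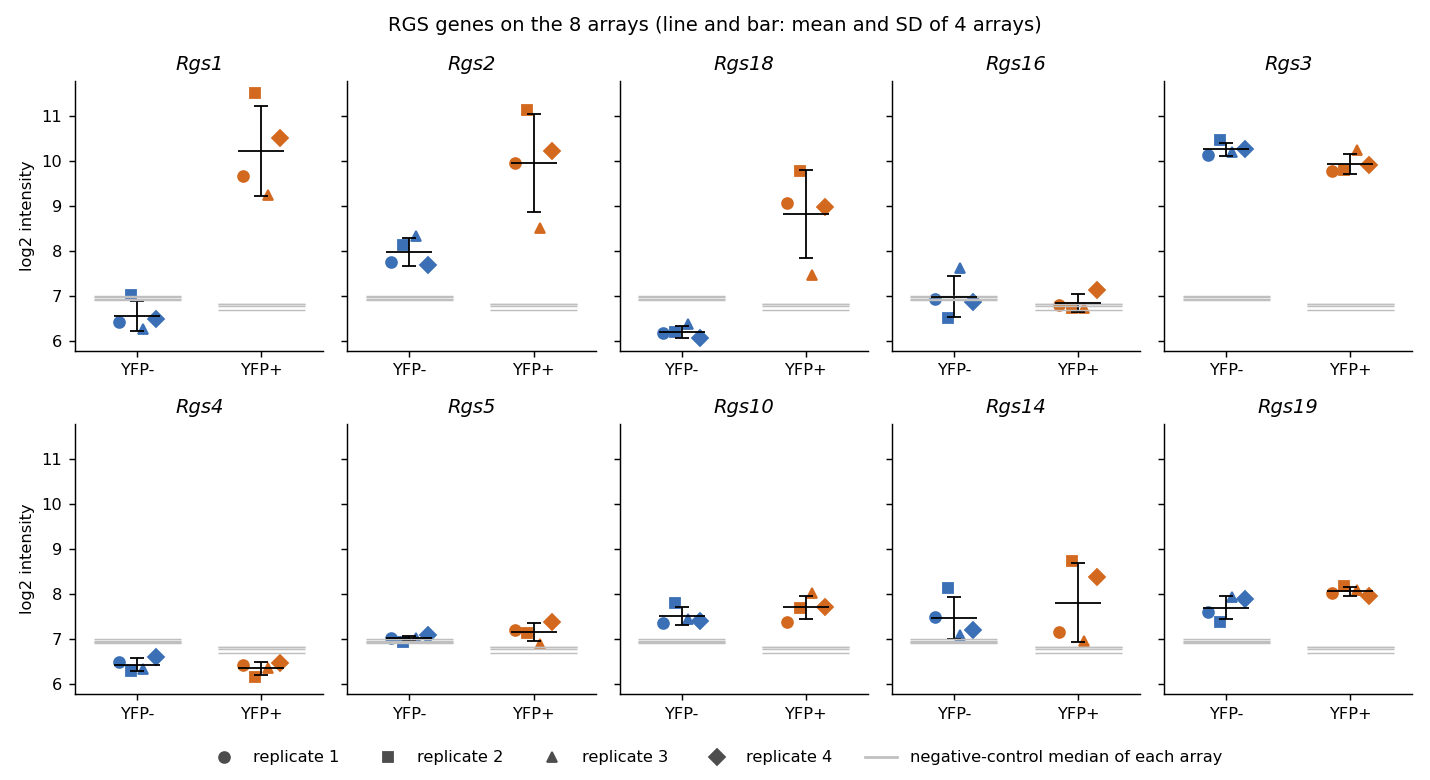
Log2 intensity (y axis) of the 10 RGS members on the 4 YFP- (blue) and 4 YFP+ (orange) arrays, with marker shapes for replicate numbers, a black line and bar for mean and SD, and grey lines for the negative-control median of each array. The groups do not overlap for Rgs1, Rgs2 and Rgs18, narrowly so for Rgs2 (8.34 against 8.51), with YFP+ replicate 2 highest and replicate 3 lowest, while Rgs3 is bright in both groups and Rgs4 lies below the control medians on all 8 arrays.

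In the fit across all genes (limma, Benjamini-Hochberg over 21161 genes, threshold 0.05), 2 of the 10 members were called higher, Rgs1 and Rgs18, and 0 lower. Over all genes 1.27% were called higher and 0.336% lower, and nothing is read from the members' count, since this contrast chose them. Rgs2 was not called with all arrays, but was called beside them without YFP+ replicate 3 (3 members). Rgs1, Rgs2, Rgs18 and Rgs19 had groups that did not overlap, all higher in YFP+ cells, as 4.80% of all genes did; 0 members lay wholly lower, as 3.82% of all genes did. In sorted bulk samples such as these, fewer cells of a type and less RNA per cell cannot be told apart.

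From the lowest to the highest YFP+ array Rgs1 spanned 4.80-fold, Rgs18 4.99-fold and Rgs2 6.13-fold, against 1.69-fold, 1.25-fold and 1.57-fold over the YFP- arrays. For Rgs1 and Rgs18 the YFP- range is that of values at background, so the ranges of those genes cannot be compared between the groups. Replicate 2 was the highest and replicate 3 the lowest YFP+ array for all 3 genes.

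Leukocyte markers varied over the same arrays. On YFP+ replicates 1 to 4 the mean of 10 pan-leukocyte genes was 8.78, 9.95, 8.31 and 8.89 log2, the order of arrays seen for Rgs1 and Rgs2. For the 7 mast cell and basophil genes the means were 9.56, 10.76, 8.52 and 9.07 log2, the order seen for Rgs18, with replicate 1 above replicate 4. Rgs18 nearly tied on replicates 1 and 4 (9.06 and 8.97 log2), as did the pan-leukocyte mean (8.78 and 8.89). Nothing is read from which list shares the order of Rgs18. The mean of the 10 megakaryocyte and platelet genes hardly varied, at 8.81, 8.66, 8.71 and 8.56 log2, while Rgs18 ranged from 7.45 to 9.77 log2 on the same arrays. Of these 10 genes 5 lay below the 95th percentile of the controls on all 8 arrays, against 1 of the 10 pan-leukocyte genes. The platelet mean therefore includes dim genes, which can hide variation of the brighter ones. The part of any of these cell types in the RGS differences was not tested.

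Over both groups, the summed intensity of the pan-leukocyte genes was 1128 to 1454 units on YFP- and 4494 to 14374 units on YFP+ arrays, and 5 of 10 were called higher. Of all genes, 1.27% were called higher, the share to set beside this and each later count. The summed platelet genes gave 2415 to 3114 and 5300 to 6432 units, with 4 of 10 called higher. Mast cell and basophil genes gave 5732 to 7274 and 5414 to 14683 units, with 3 of 7 called higher. In such sums the brightest genes weigh most. Of these 7 genes 6 had positive differences, and 1 was lower (-0.52) with groups that did not overlap. Only 1 of the 7 lay above the 95th percentile of the controls on all 8 arrays. Their list means were 7.70 to 7.91 log2 on YFP- and 8.52 to 10.76 log2 on YFP+ arrays. Monocyte and macrophage genes gave 1276 to 1461 and 1948 to 2904 units, with 4 of 10 called higher. Of these 10 genes 9 lay below the 95th percentile of the controls on all 8 arrays. Of 9 genes of T and natural killer cells, 5 of B cells and 7 of neutrophils, 0 were called by limma (3, 4 and 3 had an unadjusted p below 0.05). On all 8 arrays 8 of the 9, 5 of the 5 and 5 of the 7 lay below the 95th percentile of the controls. Dim signal thus limits what the lack of calls can show. The 1 gene of these 3 lists that lay below the negative-control median on all 8 arrays was the neutrophil marker Ly6g. Bile duct and hepatocyte genes, with 4 of 6 called higher, gave 2179 to 3099 and 4467 to 6331 units.

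**Figure D2:**
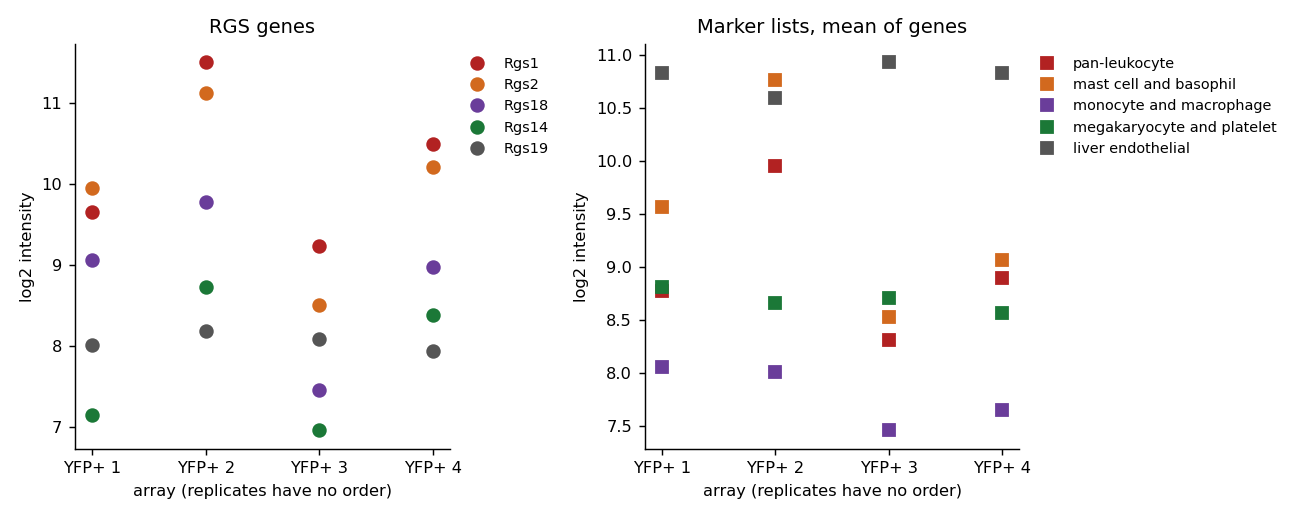
Log2 intensity on the 4 YFP+ arrays (x axis) of 5 RGS genes (left) and of the mean of 5 marker lists (right). Rgs1, Rgs2 and Rgs14 are highest on replicate 2 and lowest on replicate 3, as is the pan-leukocyte mean (9.95 and 8.31), while the platelet mean stays between 8.56 and 8.81.

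The genes whose pattern over the 8 arrays came nearest to each of these members were found by the root mean square distance, in log2 units, after subtracting each gene's own YFP- mean. Nearest to Rgs1 were Laptm5 (distance 0.26), Cyp4f18 (0.33) and Aqp9 (0.33). Rgs2 had Acod1 (0.21), Tmem71 (0.22) and Myo1f (0.25) as its nearest genes. For Rgs18 they were Ccl6 (0.18), Dock2 (0.22) and Rac2 (0.24). The 3 lists share no gene. The distances include the difference between the groups, whose size differs among the 3 members, so nothing is read from the lack of shared genes.

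The cluster did not move as a block. Rgs13, which lies between Rgs2 and Rgs1 and is known from mast cells and germinal centre B cells, had YFP- values of 6.05, 6.19, 6.33 and 6.11 log2 and YFP+ values of 6.21, 7.38, 6.33 and 6.67 log2. Only YFP+ replicate 2 stood clear of the negative-control median, and the groups overlapped. The difference of 0.48 (SE 0.23) missed the threshold (limma adjusted p = 0.407). Rgs21, known from taste cells and placed between Rgs1 and Rgs18, was at the background on all arrays, with means of 6.27 ± 0.08 and 6.30 ± 0.12 log2 (SD, n = 4). Its difference of 0.03 (SE 0.11) was also not called (limma adjusted p = 0.945).

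**Figure D3:**
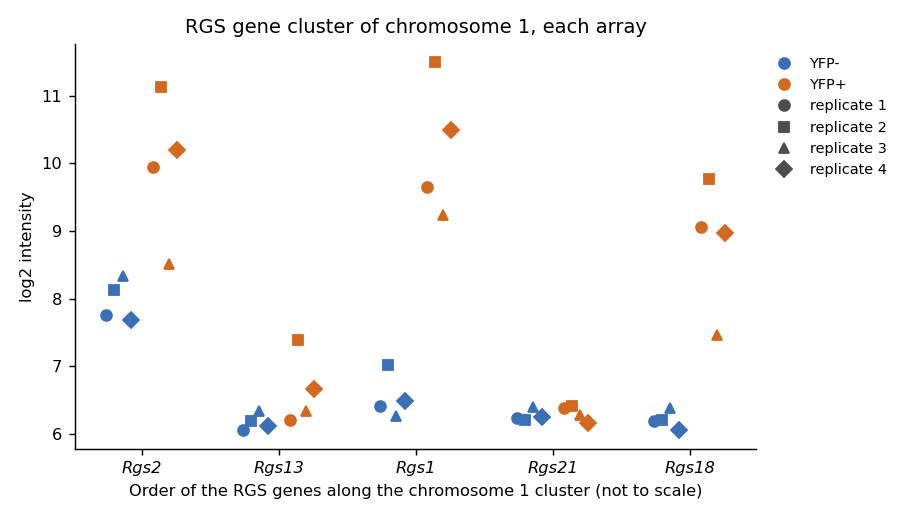
Log2 intensity (y axis) of the 5 RGS genes of the chromosome 1 cluster in their order along the chromosome (x axis, not to scale), for 4 YFP- (blue) and 4 YFP+ (orange) arrays. Rgs2, Rgs1 and Rgs18 separate the groups, while Rgs13 (mean 6.65 in YFP+) and Rgs21 (mean 6.30) between them stay low.

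Rgs16, the R4 member outside the cluster that is known from lymphocytes and from liver, did not follow Rgs1 and Rgs18. It stood at 6.93, 6.51, 7.61 and 6.87 log2 on the YFP- arrays and at 6.79, 6.74, 6.72 and 7.14 log2 on the YFP+ arrays. The groups overlapped, and 5 of the 8 values lay below the negative-control median of their array. Its difference of -0.13 (SE 0.21) rests on YFP- replicate 3, without which it was 0.08.

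Among the members linked to vessels, Rgs3 was the brightly measured one. It was the 1 member above the 95th percentile of the controls on all 8 arrays, and its protein acts on Gi and Gq. It stood at 10.13, 10.46, 10.19 and 10.25 log2 on YFP- and at 9.76, 9.80, 10.25 and 9.90 log2 on YFP+ arrays. All YFP+ arrays except replicate 3 lay below every YFP- array. The means were 10.26 ± 0.14 and 9.93 ± 0.22 (SD, n = 4), a difference of -0.33 (SE 0.14) in the same direction as all 13 endothelial markers, whose median difference was -0.25. Without YFP+ replicate 3 it was -0.43.

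Rgs4 and Rgs5, neighbours on chromosome 1, are known from pericytes and smooth muscle, the cells that wrap vessels. Rgs4 lay below the negative-control median on all 8 arrays, between 6.15 and 6.60 log2. Rgs5 stood at 7.03, 6.94, 7.01 and 7.08 log2 on YFP- and at 7.20, 7.13, 6.89 and 7.37 log2 on YFP+ arrays, close to the control medians throughout. The differences were -0.08 (SE 0.12) for Rgs4 and 0.13 (SE 0.13) for Rgs5, with overlapping groups. None of 15 measured pericyte, stellate and smooth muscle cell markers was called by limma (1 had an unadjusted p below 0.05). Their differences ran from -0.39 to 1.17. On all 8 arrays 14 of the 15 lay below the 95th percentile of the controls, so dim signal limits what the lack of calls can show. Des lay below the control median on every array. The summed intensity of the 15 was 2382 to 2826 units on YFP- and 2484 to 3999 units on YFP+ arrays.

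Rgs14, an R12 member whose protein also binds Ras-type GTPases, was uneven within both groups. Its YFP- values were 7.49, 8.13, 7.08 and 7.21 log2, and its YFP+ values 7.16, 8.72, 6.96 and 8.38 log2. YFP+ replicates 2 and 4 stood high and replicates 1 and 3 below the resident mean, so the groups overlapped widely. Rgs14 lay below the 95th percentile of the controls on all 8 arrays. YFP- replicate 2 was the highest resident array for Rgs14, as for Rgs1, Rgs3 and Rgs10. The highest was replicate 3 for Rgs2, Rgs16, Rgs18 and Rgs19, and replicate 4 for Rgs4 and Rgs5. YFP- replicate 2 also had the highest pan-leukocyte mean of the YFP- arrays (7.10 against 6.77 to 6.98). The part of leukocytes in this spread was not tested. The Rgs14 difference was 0.33 (SE 0.39), and without YFP+ replicate 2 it was 0.02.

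Rgs10 and Rgs19 are made in many leukocytes and other cells. Rgs10 stood at 7.35, 7.81, 7.45 and 7.41 log2 on YFP- and at 7.38, 7.70, 8.02 and 7.70 log2 on YFP+ arrays, with overlapping groups and a difference of 0.20 (SE 0.16). Rgs19 stood at 7.59, 7.38, 7.93 and 7.89 log2 on YFP- and at 8.01, 8.18, 8.09 and 7.95 log2 on YFP+ arrays. The groups did not overlap, though the lowest YFP+ array (7.95) lay barely above the highest YFP- array (7.93). Unlike the cluster genes, Rgs19 varied less in YFP+ (SD 0.10) than in YFP- cells (SD 0.26), and its difference was 0.36 (SE 0.14). Both genes lay below the 95th percentile of the controls on all arrays.

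Of the 14 other RGS family genes and binding partners on the array, 0 were called by limma in either direction, and 1 had an unadjusted p below 0.05. Their median difference was 0.0068, against 0.0019 for all genes, and was -0.0226 after quantile and -0.0263 after cyclic loess normalization. All 14 lay below the 95th percentile of the controls on every array. Rgs9bp, which encodes an anchor of Rgs9 in photoreceptors, had the smallest unadjusted p, with a difference of 0.43 (SE 0.18, limma adjusted p = 0.331). Rgs7bp, which encodes a membrane anchor of the R7 subfamily, stood at 8.26 ± 0.15 log2 in YFP- and 8.06 ± 0.24 log2 in YFP+ cells (SD, n = 4), Rgs12 at 7.99 and 7.90 log2 and Rgs8 at 7.57 and 7.43 log2.

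**Figure D4:**
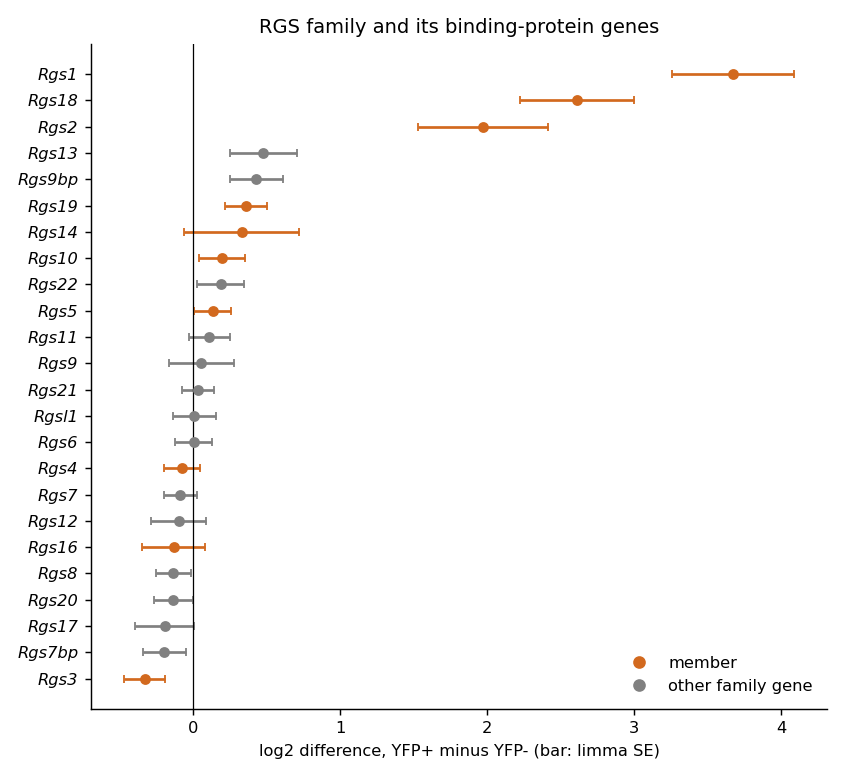
Log2 difference between YFP+ and YFP- cells (x axis, limma SE as bars) for the 10 members (orange) and 14 other family genes (grey), ordered by size. Rgs1 (3.67), Rgs18 (2.61) and Rgs2 (1.97) stand far from the remaining genes, which lie between -0.33 and 0.48.

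Around the RGS proteins in the pathway, the G-protein subunits gave no calls. Of 15 alpha subunit genes 0 were called (2 with an unadjusted p below 0.05) and the median difference was -0.0005. On all 8 arrays 8 of the 15 lay below the 95th percentile of the controls. Dim signal limits what the lack of calls can show, here and in the next lists. Gna13 had a difference of -0.42 (SE 0.14, limma adjusted p = 0.213). Gna15, whose alpha subunit is restricted largely to blood cells, had one of 0.80 (SE 0.34, limma adjusted p = 0.342). Gna15 values of 7.45, 9.19, 7.46 and 7.67 log2 on YFP+ replicates 1 to 4 set replicate 2 apart, and without it the difference was 0.38.

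Beta and gamma subunit genes (16 of 17 listed were measured) likewise had 0 calls by limma, with 2 below an unadjusted p of 0.05 and a median of 0.09. Of the 16, 10 lay below the 95th percentile of the controls on all 8 arrays, Gng2 and Gnb5 among them. The gamma subunit gene Gng2 had a difference of 0.48 (SE 0.11, limma adjusted p = 0.0781) with groups that did not overlap, and Gnb5, the beta subunit that pairs with R7 proteins, one of 0.50 (SE 0.16, limma adjusted p = 0.194). The 19 other genes with RGS domains or regulating alpha subunits had 0 calls, 2 below an unadjusted p of 0.05, and a median of 0.11. Of these, 9 lay below the 95th percentile of the controls on all 8 arrays. Axin1, a Wnt pathway scaffold with an RGS domain, had a difference of 0.70 (SE 0.18, limma adjusted p = 0.0915), and Arhgef1, an exchange factor with an RGS domain, of 0.43 (SE 0.13, limma adjusted p = 0.157).

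Among 16 effector genes downstream of G proteins 1 was called, against 1.61% of all genes in either direction, and the median difference was 0.07. Of the 16, 9 lay below the 95th percentile of the controls on all 8 arrays. Adcy4, an adenylyl cyclase gene, fell from 9.91 ± 0.11 to 9.18 ± 0.30 log2 (SD, n = 4), a difference of -0.73 (SE 0.15, limma adjusted p = 0.0494). That call ended when any 1 array other than YFP+ replicate 3 was left out, with limma adjusted p-values of 0.0860 to 0.162, and with the replicate number as a block (0.0856). Plcb2, the phospholipase C gene of blood cells, had a difference of 1.64 (SE 0.38, limma adjusted p = 0.0645). Its values of 8.81, 10.16, 7.91 and 8.67 log2 on YFP+ replicates 1 to 4 were again highest on replicate 2 and lowest on replicate 3, and it was called without either of them (0.0259 and 0.0109).

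RGS proteins end the signals of G-protein-coupled receptors, which were listed apart for blood cells and vessels. Of 26 listed receptor genes of blood cells 24 were measured, 22 had positive differences and 3 were called higher, with a median of 0.60. Most were dim: 14 of the 24 lay below the 95th percentile of the controls on all 8 arrays, and 1 above it on all 8. Over all genes 50.4% had positive differences and 1.27% were called higher. Cxcr2 had a measured difference of 2.28 (SE 0.28, limma adjusted p = 0.00524), C5ar1, the receptor gene of complement C5a, of 0.92 (SE 0.14, limma adjusted p = 0.0134) and Cxcr4 of 2.24 (SE 0.40, limma adjusted p = 0.0261), each higher on all 4 YFP+ arrays than on any YFP- array. None of these genes exceeded the 95th percentile of the controls on a YFP- array, and Cxcr2 and C5ar1 lay below the control median on 3 of the 4. Against that percentile of the YFP- arrays the YFP+ mean of Cxcr2 was 1.07-fold and that of Cxcr4 1.39-fold higher. Of the 4 YFP+ arrays, Cxcr2 exceeded the percentile on 2 and Cxcr4 on 3, so neither value is a firm lower bound. C5ar1 lay below it on all 8 arrays and has no such value. With the control median subtracted the differences were 4.81, 2.71 and 4.20 for Cxcr2, C5ar1 and Cxcr4. The Cxcr4 call ended without any 1 YFP- array or without YFP+ replicate 1 (limma adjusted p-values of 0.0556 to 0.0873).

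The 21 vascular receptor genes had 15 negative and 6 positive differences, against 50.4% positive over all genes, and a median of -0.21. Of the 21, 9 lay below the 95th percentile of the controls on all 8 arrays, and 8 above it on all 8. There was 1 call higher and 0 lower, against 1.27% and 0.336% of all genes. The adenosine receptor gene Adora2b stood at 6.79 ± 0.10 log2 in YFP- and 8.26 ± 0.69 log2 in YFP+ cells (SD, n = 4), a measured difference of 1.48 (SE 0.29, limma adjusted p = 0.0360). It was not called without any 1 of the YFP- arrays (limma adjusted p-values of 0.0895 to 0.119). Adora2b lay below the control median on all 4 YFP- arrays and above the 95th percentile on 1 YFP+ array, so no bound on its fold can be given, and its difference was 3.51 with the control median subtracted. F2r, a thrombin receptor gene, was bright on all arrays and had a difference of -0.49 (SE 0.11, limma adjusted p = 0.0704) with groups that did not overlap. It was called lower with the control median subtracted (limma adjusted p = 0.0493), with dim genes left out (0.0332), where it was the 1 vascular call, and with array weights (0.0427). The direction of both list medians was the same after quantile and cyclic loess normalization and with the negative-control median subtracted.

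**Figure D5:**
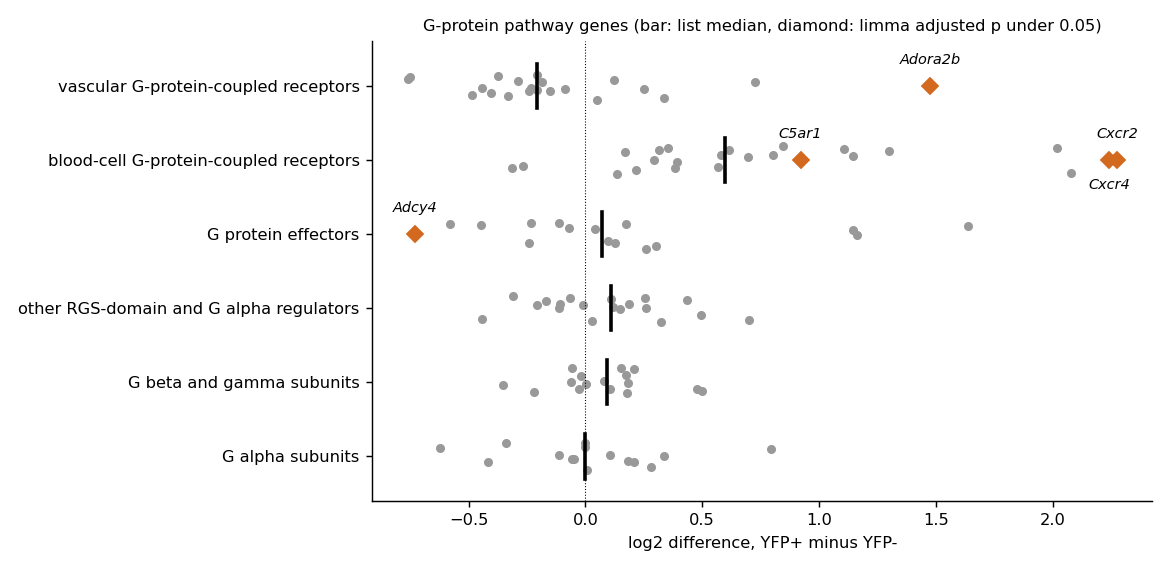
Log2 difference between YFP+ and YFP- cells (x axis) for genes of 6 G-protein pathway lists (rows), with grey points for genes not called, orange diamonds for genes called by limma and black bars for list medians. The median is 0.60 for blood-cell receptors and -0.21 for vascular receptors, and between -0.0005 and 0.11 for the other lists.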

How the data were processed

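For 8 Affymetrix arrays the authors deposited 1 normalized intensity per probe set, on a linear scale. The arrays were hybridized with biotin-labelled cRNA made from 100 pg of total RNA per the labels' protocols. The array model, summarization software, background correction and annotation build are not stated in the labels or file headers. Sample values came from the series' value table (28838 entries), and symbols came from the larger table (29129 entries), whose values for each group are identical.

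Intensities were log2 transformed without further normalization. Of 22206 gene probe sets, 3 had missing values, 830 had several symbols and 3 none. For 130 genes with several probe sets the brightest over the 8 arrays was used. Entrez numbers matched the RefSeq table (GRCm38.p6) for 20295 probe sets, of which 890 got a newer symbol. Groups were taken from the titles and compared in R 4.3.3 with the limma package, version 3.58.1 (default eBayes, two-sided, Benjamini-Hochberg over 21161 genes, no covariate). The labels call the arrays biological replicates without naming mice, so p-values reflect only the spread among these arrays, which may be technical. SEs are limma's. Tables and plots were made with Python 3.11.15, numpy 2.4.6, pandas 2.3.3 and matplotlib 3.10.9. The fit was tested on data simulated with an SD shared by both groups. That test does not cover unequal spread, as in Rgs1, Rgs2 and Rgs18, whose YFP+ SD was 3.02, 3.49 and 7.30 times the YFP- SD. Upstream sequences come from RefSeq.

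The members, the 7 pathway and 10 marker lists and the rules were chosen with earlier results of these data known. The text names all members, up to 4 called genes of each pathway list, otherwise the 2 with the smallest p, the 3 brightest other RGS genes, single markers that a statement turns on and the 3 genes nearest in pattern to each member that differed at least 2-fold. Alternatives were 8 other settings of the fit and leaving out each of the 8 arrays. Listed genes with no single-symbol match (Gnb2, Fpr2, P2ry14, Gp1bb and Egfl7) were not analysed here.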

Additional observations from a re-analysis of the deposited data

Results flagged for a closer look

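In 3 of 56 groups of 4 arrays examined for the members and the named pathway genes, 1 array lay far from the others, which chance does in about 1 of 20 groups. Rgs16 stood at 7.14 log2 on YFP+ replicate 4, against 6.72 to 6.79 on the other YFP+ arrays. Gna15 stood at 9.19 log2 on YFP+ replicate 2, against 7.45 to 7.67 on the others. Cxcr4 stood at 11.03 log2 on YFP+ replicate 2, against 8.94 to 9.23 on the others.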

How the results depend on the processing

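No member that was called changed direction under any setting run. Of the 10 members' differences, 5 moved by more than 1 SD, all with the negative-control median subtracted: Rgs1 to 6.05, Rgs18 to 4.27, Rgs19 to 0.99, Rgs5 to 0.94 and Rgs10 to 0.78. With that subtraction 1 member was called instead of 2 (Rgs18 missed, limma adjusted p = 0.0519), 1 beta or gamma subunit gene (Gng2), 0 effectors and 2 vascular receptors. With dim genes left out, 1 member (Rgs1, with Rgs18 filtered out), 0 blood-cell receptors and 128 genes higher and 118 lower were called. Quantile normalization left 0 effectors called, and cyclic loess 0 effectors and 38 lower genes. Trended and robust eBayes called 2 effectors and 5 blood-cell receptors. Rgs2 was called as well with that setting, with array weights and without YFP+ replicate 3. Array weights called 695 genes (519 higher and 176 lower), with 3 effectors, 8 blood-cell and 2 vascular receptors. The cause of these changes was not tested, apart from genes that a filter removed. Without each array in turn, 115 to 636 genes were called (340 with all arrays), 107 to 502 higher and 8 to 134 lower, the most without YFP+ replicate 3; members numbered 2 to 3, effectors 0 to 4, blood-cell receptors 2 to 9 and vascular receptors 0 to 1. With the replicate number as a block, 241 genes were called, 37 of them lower, with 2 members and 0 effectors. Deviations of same-numbered arrays correlated at 0.16, 0.019, 0.10 and 0.078 for replicates 1 to 4, and 7 of 8 arrays correlated best with their own number, a hint from the data and not from the design. Dim signal limits Rgs4, Rgs5, Rgs16 and the resident levels of Rgs1, Rgs18, Cxcr2, C5ar1 and Adora2b, which lie near or below the negative controls. It also limits Rgs10, Rgs14 and Rgs19, which lay below the 95th percentile of the controls on all 8 arrays.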
